A study of Mus musculus with 4 samples.

Results

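The genes described here are the 37 members of a fixed list of the autophagy and mitophagy machinery of the mouse. The list holds the ULK kinase complex, the Beclin 1 PI3K complex, the suppliers of membrane and the WIPI proteins, the conjugation enzymes, the Atg8 family, the cargo receptors, the mitophagy factors and the regulators Tfeb and Tfe3. All 37 were found by symbol among the 16051 genes of the expression table, and all 37 passed the minimum mean of 1 FPKM (fragments scaled to transcript length and to library size) over the 4 libraries, as did 10243 genes in all. The libraries are mRNA sequencing of differentiated 3T3-L1 cells, a mouse embryonic fibroblast line (strain NIH SWISS per the labels) that is used as a model of fat cell formation. Cells carried no engineered allele and, per the study's methods, were first differentiated with isobutyl-methylxanthine, dexamethasone and insulin in both groups. They were then given DMSO, the vehicle, or 100 μM risperidone, an antipsychotic drug that blocks dopamine and serotonin receptors, for 48 h. There were 2 libraries per group (n = 2 for every value below), each a pool of the RNA of 3 cultures, and differences among single cultures are therefore not seen. The labels name the controls as untreated, the tissue as embryonic and the RNA source as retina, whereas the methods name DMSO and 3T3-L1 cells and no retina. Of 6 retina markers, 3 were in the table, and they summed to between 0.58 and 1.10 FPKM in the 4 libraries.

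Autophagy encloses part of the cytoplasm in a growing double membrane, the phagophore, and delivers it to lysosomes. The ULK kinase complex starts the process, the PI3K complex makes the lipid signal that the WIPI proteins read, and ATG9 vesicles and the lipid transfer protein ATG2 feed the membrane. A pair of ubiquitin-like conjugation reactions then attaches Atg8 proteins (the LC3 and GABARAP subfamilies) to lipid on the phagophore, where cargo receptors bind them. Mitophagy is the form that removes mitochondria, and in fat cells it is known for the loss of mitochondria when beige adipocytes turn white. TFEB and TFE3 are transcription factors that bind CLEAR elements near lysosomal and autophagy genes. mRNA levels do not measure autophagic flux.

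The libraries were of like depth, at 16374119 and 15883712 counts in the controls and 16269448 and 15977936 in the treated pair. The 37 genes had between 41 and 9250 counts in a library, whereas a count of 0 would allow up to 3 counts, or 0.183 to 0.189 CPM (the count scaled to library size), by counting error alone. The fat cell label was met in part. Of 8 adipocyte markers, Fabp4, Pparg and Lpl passed the minimum level. The rest were under it with DMSO as well as with risperidone. In every library Adipoq stayed at or under 0.06 FPKM, Cebpa 0.12 FPKM, Cidec 0.08 FPKM, Lep 0.02 FPKM and Plin1 0.51 FPKM. The summed level of the 8, mostly Lpl and Fabp4, was 377 and 431 FPKM with DMSO against 264 and 275 FPKM with risperidone. Fabp4 (log2 fold change -1.09) and Lpl (-0.24) were called lower, and Pparg (0.12) was not called. The 6 fibroblast and preadipocyte markers summed to 2272 and 2206 FPKM with DMSO and 2439 and 2476 FPKM with risperidone, but single markers differed. Dlk1 (log2 fold change 1.52), Thy1 (1.05) and Col1a1 (0.99) were called higher and Col1a2 (-0.16) lower, while Pdgfra (-0.03) and Fn1 (0.05) were not called. Of 5 macrophage markers, 4 were in the table and summed to 2.87 and 4.10 FPKM with DMSO and 6.71 and 7.10 FPKM with risperidone, a difference that lay in Cd68 (2.64 and 3.50 against 6.34 and 6.70 FPKM), while Lyz2, Csf1r and Ptprc each stayed under 1 FPKM in every library. The library risperidone 2 stood apart, since 12 kidney markers summed to 218 FPKM in it and to between 1.91 and 3.04 FPKM in the other 3 libraries. Counts and the main values without that library are therefore given after the counts over all libraries. The part of these marker differences in the results was not tested, and in bulk RNA fewer cells of a type and less RNA per cell cannot be told apart.

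Risperidone was accompanied by lower mRNA of the ULK complex, Atg2a, Atg10, Map1lc3b, Bnip3 and Bnip3l, and by higher mRNA of Gabarap, Gabarapl1 and Sqstm1. In edgeR (quasi-likelihood F-test, p adjusted by Benjamini-Hochberg over all genes tested), 9 of the 37 were higher, 16 were lower and 12 were not called at an adjusted p of 0.05. Many genes changed in these libraries, since 64.3% of all genes tested were called, 32.1% as higher and 32.2% as lower, so the 67.6% called among the 37 is near the share over all genes. The median log2 fold change (risperidone over DMSO) was -0.08 over the 37 genes and 0.00 over all genes tested. Their changes were small, with a median absolute log2 fold change of 0.21 against 0.30 over all genes. The 37 were also more abundant, at a median of 30.6 FPKM against 14.2 FPKM, and the part of level in this was not tested. A single gene, Atg10, reached an absolute log2 fold change of 1 and was called, as did 6.52% of all genes. Without risperidone 2, the counts were 10 higher and 14 lower, beside 3310 and 3350 of all genes tested. Fewer genes were called with a control left out. Without control 1 the counts were 4 and 13 of the 37, beside 2666 and 2725 of all genes, and without control 2 they were 6 and 11, beside 2688 and 2726 of all genes.

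**Figure D1:**
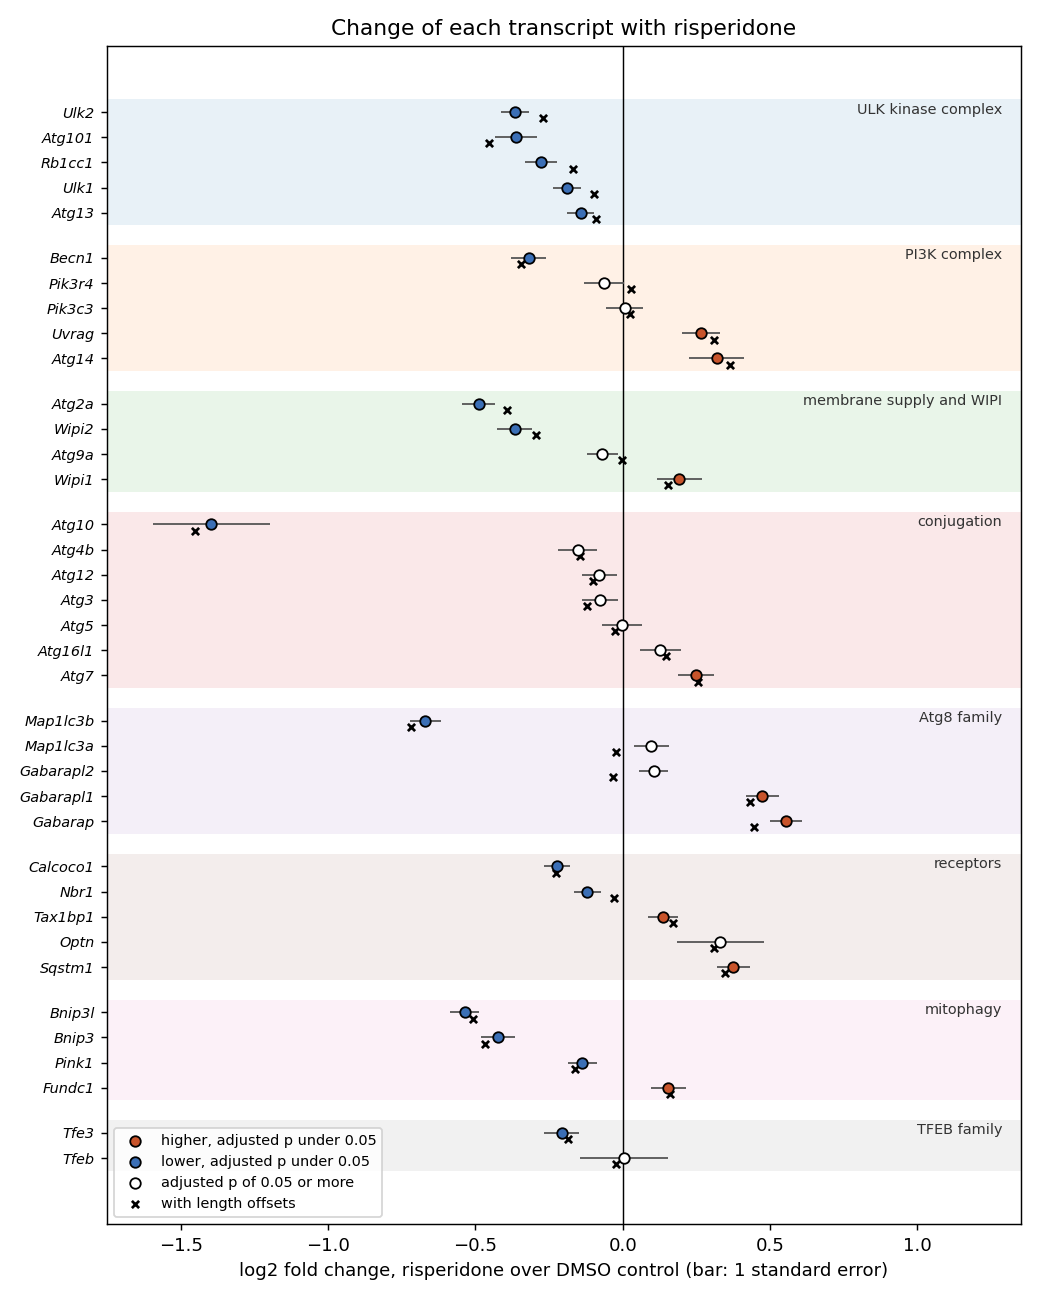
Log2 fold change (risperidone over DMSO, horizontal axis) of each of the 37 genes by role, with bars of 1 standard error from edgeR and colours for genes called higher, called lower or not called. Atg10 lies farthest left at -1.40 and Gabarap farthest right at 0.55, and all 5 genes of the ULK complex lie left of 0.

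The groups of libraries did not overlap in TMM-normalised CPM for 32 of the 37 genes, 13 with risperidone above DMSO and 19 with it below. Over all genes tested, 82.9% did not overlap, 41.2% with risperidone above and 41.7% below. The 5 that overlapped were Atg5, Atg12, Pik3c3, Pik3r4 and Tfeb. The calls were compared over 14 alternative analyses, which leave out the limit on the size of the change and the crossed block described further below. Of the 25 called genes, 14 kept their direction and call under every one of these analyses that could be run for them. Of these 14 genes, 11 were lower and 3 were higher. The lower ones were Ulk2, Rb1cc1, Atg101, Becn1, Atg2a, Wipi2, Atg10, Map1lc3b, Calcoco1, Bnip3 and Bnip3l, and the higher ones were Gabarap, Gabarapl1 and Sqstm1.

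Without risperidone 2, the library with kidney markers, 3 of the 25 calls were lost (Atg14, Nbr1 and Tfe3), and Atg16l1 (log2 fold change 0.19, edgeR adjusted p = 0.0168) and Gabarapl2 (0.14, edgeR adjusted p = 0.0309) were called higher. For some of the genes that were lower, the log2 fold changes were then -1.35 for Atg10, -0.61 for Map1lc3b, -0.55 for Bnip3l, -0.51 for Bnip3, -0.52 for Atg2a and -0.36 for Ulk2. For some of those that were higher, they were 0.60 for Gabarap, 0.54 for Gabarapl1, 0.45 for Sqstm1, 0.34 for Uvrag, 0.30 for Wipi1, 0.21 for Fundc1 and 0.19 for Tax1bp1. Each of these genes was called in the same direction as with all 4 libraries.

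Levels of different genes were compared as FPKM, which is per length. With DMSO, Bnip3 (354 ± 7.49 FPKM, mean ± SD) and Gabarap (348 ± 15.7 FPKM) were the most abundant of the 37 and did not differ beyond their spread. Gabarapl1 (246 ± 6.32 FPKM), Sqstm1 (234 ± 0.643 FPKM) and Map1lc3b (142 ± 4.31 FPKM) followed. With risperidone, Gabarap was at 476 ± 22.5 FPKM and Gabarapl1 at 319 ± 20.4 FPKM. Bnip3 stood at rank 4 with 246 ± 20.5 FPKM and Map1lc3b at rank 8 with 83.2 ± 4.66 FPKM. Atg10, Tfeb and Optn were the least abundant with DMSO, between 2.98 and 5.04 FPKM.

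**Figure D2:**
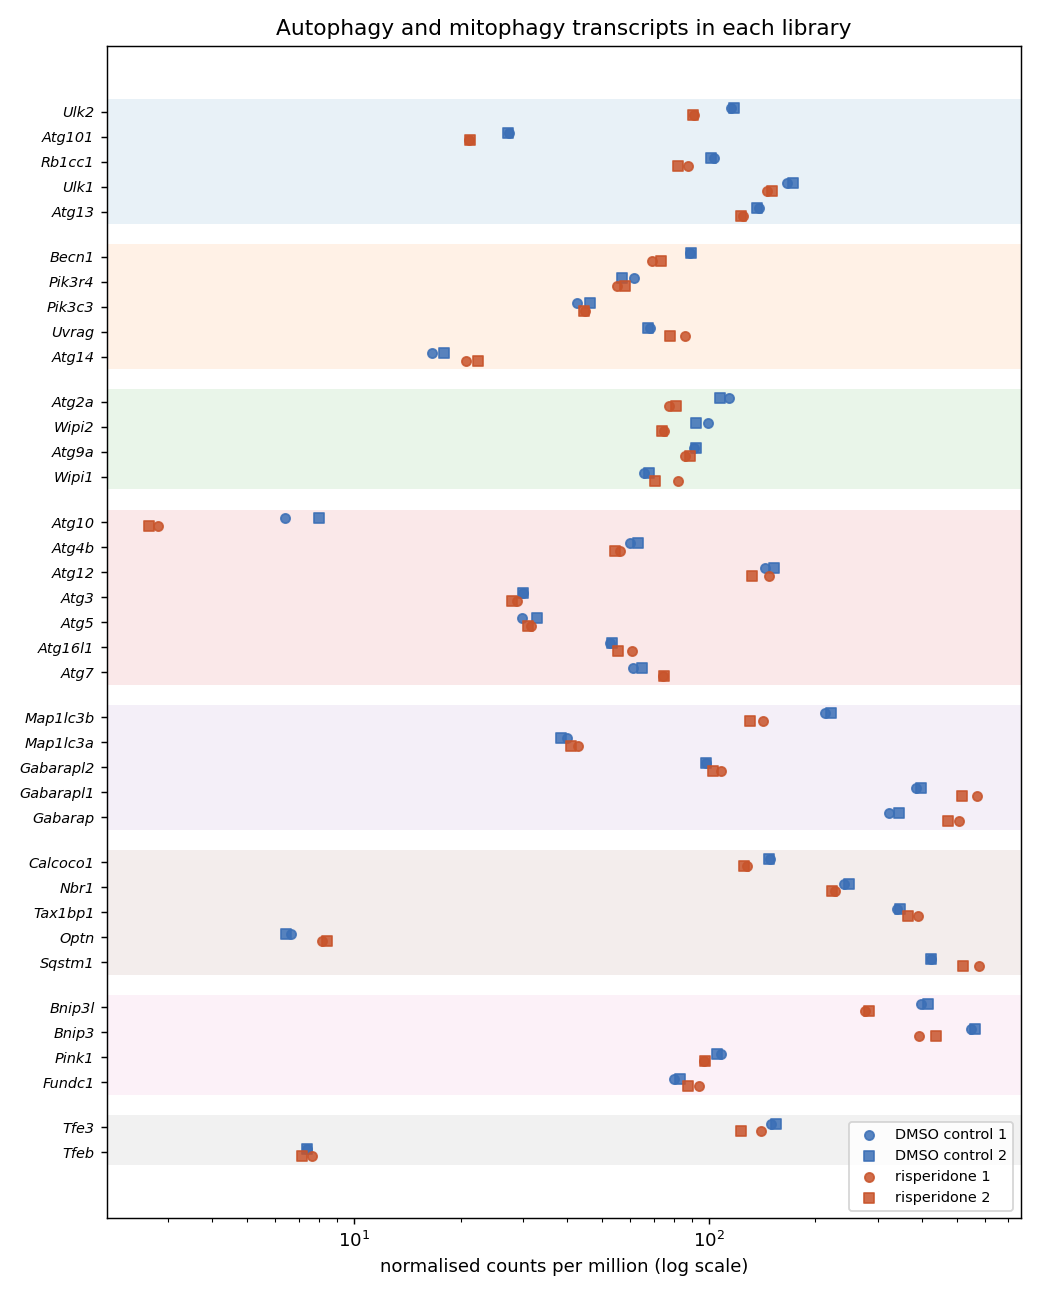
Level of each of the 37 genes in the 4 libraries as TMM-normalised CPM on a log axis, grouped by role, with 1 point per library. The risperidone points of Map1lc3b (142 and 131 CPM) lie below those of DMSO (213 and 222 CPM), and those of Gabarap (507 and 473 CPM) lie above (324 and 344 CPM).

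The ULK complex, a protein kinase with its scaffolds, was lower with risperidone in all 5 members called, with a median log2 fold change of -0.28. Ulk2, a kinase of the complex, had 116 and 118 CPM with DMSO and 90.8 and 90.7 CPM with risperidone, a log2 fold change of -0.37 (SE 0.0478, edgeR adjusted p = 5.68e-05). Atg101, which stabilises ATG13, had 27.3 and 27.2 CPM with DMSO and 21.2 CPM in both risperidone libraries, a log2 fold change of -0.36 (SE 0.0700, edgeR adjusted p = 0.000917). The replicates of these genes lay closer to each other than to the other group. Rb1cc1, the FIP200 scaffold, fell by 0.28 on the log2 scale (SE 0.0547, edgeR adjusted p = 0.00102). The kinase Ulk1 fell by 0.19 (edgeR adjusted p = 0.00446) and the adaptor Atg13 by 0.14 (edgeR adjusted p = 0.0176). These smaller changes of Ulk1 and Atg13 depended on the analysis: with a correction for gene length they were -0.10 and -0.09 (edgeR adjusted p = 0.0639 and 0.0715), and without control 2 their edgeR adjusted p were 0.0756 and 0.135. DESeq2 did not call Atg13 (DESeq2 adjusted p = 0.0901), nor was it called without control 1 (edgeR adjusted p = 0.177).

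In the PI3K complex, 2 of 5 members were higher, 1 was lower and 2 were not called. Becn1, the Beclin 1 subunit shared by its forms, had 88.8 and 89.2 CPM with DMSO and 69.2 and 73.5 CPM with risperidone, a log2 fold change of -0.32 (SE 0.0587, edgeR adjusted p = 0.000651). Becn1 was the 1 gene of the 37 with fractional counts, which are estimates of shared reads, and it overlaps Cntd1 (0.17 FPKM on average) by 444 bases. Uvrag and Atg14, whose proteins occupy the same place on Beclin 1 in the endosomal and the autophagosomal form, were both higher. Uvrag had a log2 fold change of 0.27 (SE 0.0658, edgeR adjusted p = 0.00446) and Atg14 of 0.32 (SE 0.0926, edgeR adjusted p = 0.0108). In deposited TPM, which are transcript shares scaled to a fixed sum per library and were tested with limma here and below, Uvrag was at 0.02 and not called, but the median of all genes was shifted to -0.22 there, and Uvrag was 0.25 above it. The Atg14 call was kept under 7 of 14 alternatives, and was lost among others without control 1 or without risperidone 2 (edgeR adjusted p = 0.138 and 0.0517) and in DESeq2 (DESeq2 adjusted p = 0.0727). The catalytic subunit Pik3c3 (log2 fold change 0.01, SE 0.0636) and the regulatory subunit Pik3r4 (-0.06, SE 0.0684) were not called, and their groups overlapped.

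Among the genes for membrane supply and lipid reading, 1 of 4 was higher, 2 were lower and 1 was not called. Atg2a, which transfers lipid to the phagophore, had 114 and 108 CPM with DMSO and 77.2 and 81.2 CPM with risperidone. Both risperidone values lay well under both controls, and the log2 fold change was -0.49 (SE 0.0556, edgeR adjusted p = 2.05e-05), between -0.53 and -0.45 with any one library left out. Wipi2, which recruits ATG16L1 to the lipid signal, had 99.8 and 92.0 CPM with DMSO and 74.9 and 73.8 CPM with risperidone (log2 fold change -0.37, SE 0.0599, edgeR adjusted p = 0.000282). Its relative Wipi1 had a log2 fold change of 0.19 (SE 0.0754, edgeR adjusted p = 0.0435) and -0.05 in TPM, which was 0.17 above the median of all genes there. Its value rested on the choice of library, at 0.08 without risperidone 1 (edgeR adjusted p = 0.273) and 0.30 without risperidone 2, and the call was kept under 3 of 14 alternatives. Atg9a, the lipid scramblase of the supplying vesicles, was not called (-0.07, SE 0.0535).

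Of the 7 conjugation genes, 1 was higher, 1 was lower and 5 were not called. Atg10 encodes the enzyme that joins ATG12 to ATG5 and lies on chromosome 13 from 90935348 to 91224725 (GRCm38.p6). Its libraries held 108 and 131 counts with DMSO and 44 and 41 with risperidone, or 6.41 and 7.99 CPM against 2.81 and 2.64 CPM. The groups were far apart although the gene was among the least abundant of the 37. The log2 fold change was -1.40 (SE 0.199, edgeR adjusted p = 0.000107), a 0.380-fold level, and lay between -1.55 and -1.23 with any one library left out. Atg7, the activating enzyme of both conjugation reactions, had 61.3 and 64.8 CPM with DMSO and 74.7 and 75.1 CPM with risperidone (log2 fold change 0.25, SE 0.0615, edgeR adjusted p = 0.00440). Its call was kept under 12 of 14 alternatives, the exceptions being without control 1 (edgeR adjusted p = 0.0730) and limma on TPM (log2 fold change 0.16, limma adjusted p = 0.0536). The length implied by its counts and FPKM was 2951 and 2956 bases with DMSO and 2671 and 2653 bases with risperidone. Atg7 was the 1 gene of the 37 whose implied length differed by over 0.1 on the log2 scale, as did that of 4.57% of all genes tested. Not called were Atg3, the enzyme that attaches Atg8 proteins to lipid (-0.08, SE 0.0612), Atg5 (-0.00, SE 0.0670), Atg12 (-0.08, SE 0.0591), Atg16l1, the partner that places the ATG12 and ATG5 conjugate on the membrane (0.13, SE 0.0684), and Atg4b, the protease that trims Atg8 proteins (-0.15, SE 0.0647, edgeR adjusted p = 0.0569). Atg12 and Ap3s1, a more abundant gene at 149 FPKM, overlap by 31 bases.

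The RefSeq promoters (GRCm38.p6, 250 bases before to 50 after a start) were searched for CACGTG, the core of the CLEAR element that TFEB and TFE3 bind and of the E-boxes of other factors. The letters read the same on both strands. There were 35 promoters for 30 of the 37 genes, and 5 of them (14.3%) held CACGTG, against 7.15% of all 32851 promoters. The genes were Atg3, Atg5, Atg7, Atg14 and Bnip3. The longer form TCACGTGA, which contains CACGTG, was in 1 of the 35, that of Atg3, against 0.974% of all. The stretches before the start sites of the conjugation genes and of Bnip3 are shown to set the motif beside the changes of these genes, in lower case with CACGTG in capitals. They lie at chr16:45158695-45158803 on the plus strand for Atg3, chr6:114670924-114671009 on the plus strand for Atg7, chr10:44268285-44268338 on the plus strand for Atg5 and chr7:138909569-138909654 on the minus strand for Bnip3.
Atg3: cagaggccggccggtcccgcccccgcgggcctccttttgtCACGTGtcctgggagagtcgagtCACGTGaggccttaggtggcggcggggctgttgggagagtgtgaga
Atg7: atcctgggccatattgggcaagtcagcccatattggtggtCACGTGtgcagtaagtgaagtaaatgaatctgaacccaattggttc
Atg5: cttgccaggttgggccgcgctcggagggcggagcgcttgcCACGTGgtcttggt
Bnip3: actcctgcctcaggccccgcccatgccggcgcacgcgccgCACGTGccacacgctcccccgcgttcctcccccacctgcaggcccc
The first bases of the motifs lie at -94 and -71 in Atg3, -132 in Atg7, -14 in Atg5 and -108 in Bnip3, counted from the start site. In Atg14 the motif begins at -1 and runs past the start site, so no stretch of Atg14 is shown. The start used for Atg7 lies inside the longer gene annotated from 114643127 to 114860604 on chromosome 6. That used for Atg5 also lies inside its gene, annotated from 44268322 to 44364299 on chromosome 10, as does the Atg5 motif. The genes with the motif did not move one way, since Atg7 and Atg14 were higher, Bnip3 was lower, and Atg3 and Atg5 were not called. The antioxidant response letters TGACNNNGC, searched on both strands, were in 4 of the 35 promoters (11.4%), those of Atg13, Tax1bp1, Map1lc3b and Ulk2, against 12.4% of all promoters. Such matches are descriptions of letters and not of binding.

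In the Atg8 family, 2 of 5 genes were higher, both of the GABARAP subfamily, 1 was lower and 2 were not called. Map1lc3b encodes LC3B, the protein most often used to mark autophagosomes, and lies on chromosome 8 from 121590438 to 121598760. It had 213 and 222 CPM with DMSO and 142 and 131 CPM with risperidone. The risperidone libraries were at a 0.628-fold level, a log2 fold change of -0.67 (SE 0.0530, edgeR adjusted p = 1.39e-06), between -0.73 and -0.61 with any one library left out. The gene overlaps Zcchc14 (16.03 FPKM) by 64 bases. Gabarap, the founding member of the GABARAP subfamily, lies on chromosome 11 from 69991370 to 69994949 and had 324 and 344 CPM with DMSO and 507 and 473 CPM with risperidone. Both risperidone libraries were above both controls, at a 1.47-fold level (log2 fold change 0.55, SE 0.0543, edgeR adjusted p = 7.22e-06, between 0.50 and 0.60 with any one library left out). Gabarapl1 had 385 and 398 CPM with DMSO and 570 and 517 CPM with risperidone, also without overlap, at a 1.39-fold level (log2 fold change 0.47, SE 0.0560, edgeR adjusted p = 2.71e-05). Gabarapl2 had 98.6 and 98.4 CPM with DMSO and 109 and 103 CPM with risperidone, and the difference was not called (log2 fold change 0.10, SE 0.0505, edgeR adjusted p = 0.0913). Map1lc3a, which encodes LC3A, had 39.97 and 38.3 CPM with DMSO and 42.8 and 41.0 CPM with risperidone and was not called (log2 fold change 0.10, SE 0.0592, edgeR adjusted p = 0.170). In deposited TPM, where the median of all genes was -0.22, Gabarapl2 and Map1lc3a both had a log2 fold change of -0.14, which was 0.08 above that median for each. Map1lc3b, Gabarap and Gabarapl1 kept their direction in TPM.

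Expressed per length as a share of the summed TPM of the family, Map1lc3b made up 15.7% and 15.8% with DMSO and 8.005% and 7.95% with risperidone. Gabarap made up 38.2% and 39.2% with DMSO and 45.5% and 45.8% with risperidone. Gabarapl1 made up 27.4% and 27.3% with DMSO and 30.9% and 30.3% with risperidone. The family sum was 1828 and 1884 TPM with DMSO and 1979 and 1914 TPM with risperidone, on the TPM scale where the median of all genes was at -0.22, and how the make-up and the sum compare was not tested. The LC3 genes together held 20.8% and 20.5% of the sum with DMSO and 12.2% in both risperidone libraries, with no overlap. No test was run on the shares, and each library's value is given instead.

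**Figure D3:**
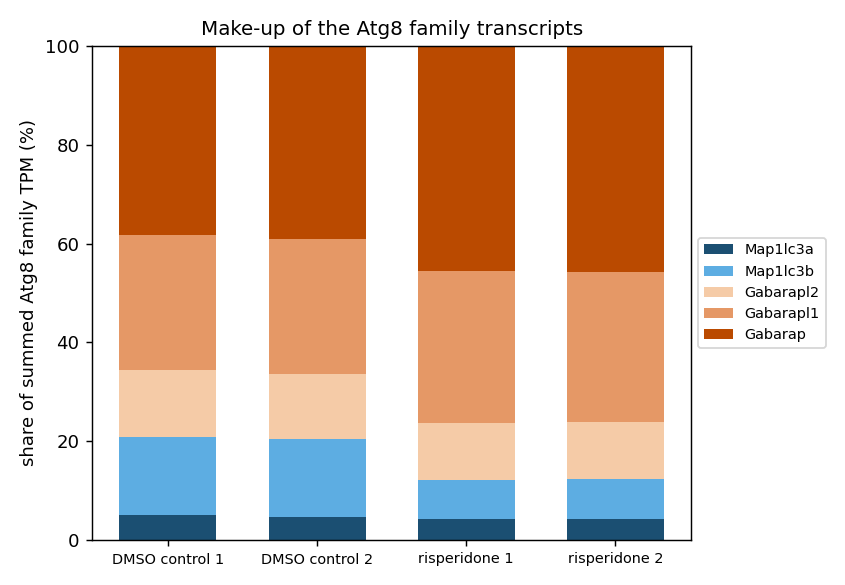
Share of each of the 5 Atg8 family genes in their summed TPM (percent, stacked from 0 to 100) in each of the 4 libraries. The share of Map1lc3b is 15.7% and 15.8% in the DMSO libraries and 8.005% and 7.95% in the risperidone libraries, and that of Gabarap is 38.2% and 39.2% against 45.5% and 45.8%.

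Cargo receptors bind both the cargo and Atg8 proteins. Of 5 receptor genes, 2 were higher, 2 were lower and 1 was not called. Sqstm1 encodes p62, the receptor of ubiquitinated proteins. It had 424 CPM in both DMSO libraries and 578 and 522 CPM with risperidone. The risperidone values lay above both controls, at a 1.30-fold level (log2 fold change 0.38, SE 0.0561, edgeR adjusted p = 0.000151), and the log2 fold change in TPM was 0.13 and still called. Tax1bp1, a receptor that also binds ubiquitin, had 339 and 348 CPM with DMSO and 390 and 364 CPM with risperidone. Its log2 fold change was 0.14 (SE 0.0509, edgeR adjusted p = 0.0356) and, in TPM, -0.10, which was 0.12 above the median of all genes. It was at 0.08 without risperidone 1 (edgeR adjusted p = 0.132), and its call was kept under 4 of 14 alternatives. Nbr1, the p62 relative with a ubiquitin-binding domain, had 241 and 249 CPM with DMSO and 227 and 223 CPM with risperidone (log2 fold change -0.12, SE 0.0458, edgeR adjusted p = 0.0386). With the length correction Nbr1 had a log2 fold change of -0.03 and was not called, and its call was kept under 7 of 14 alternatives. Calcoco1, an endoplasmic reticulum receptor, had 149 and 148 CPM with DMSO and 128 and 126 CPM with risperidone, with replicates close together (log2 fold change -0.22, SE 0.0451, edgeR adjusted p = 0.00125). Optn, which encodes optineurin, a receptor in PINK1-dependent mitophagy, had 6.65 and 6.47 CPM with DMSO and 8.12 and 8.39 CPM with risperidone. Its groups did not overlap, yet the difference was not called at this depth (log2 fold change 0.33, SE 0.149, edgeR adjusted p = 0.0715).

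The mitophagy genes were lower in 3 of 4 cases and higher in 1, with a median log2 fold change of -0.28. Bnip3 and Bnip3l, outer membrane receptors of mitochondria that bind Atg8 proteins without ubiquitin and are induced in hypoxia, fell together. Bnip3 had 549 and 564 CPM with DMSO and 392 and 438 CPM with risperidone. Both risperidone values were below both controls, with a wider spread between them (log2 fold change -0.42, SE 0.0582, edgeR adjusted p = 8.20e-05, between -0.51 and -0.35 with any one library left out). Bnip3l, which encodes NIX, had 396 and 417 CPM with DMSO and 277 and 283 CPM with risperidone. Its libraries were at a 0.689-fold level (log2 fold change -0.54, SE 0.0485, edgeR adjusted p = 3.78e-06). Pink1, the kinase that marks depolarised mitochondria, had 108 and 106 CPM with DMSO and 96.8 and 97.9 CPM with risperidone, a smaller difference (log2 fold change -0.14, SE 0.0483, edgeR adjusted p = 0.0278). The Pink1 call was kept under 9 of 14 alternatives, and was lost among others without control 1 or control 2 (edgeR adjusted p = 0.287 and 0.172) and in DESeq2 (DESeq2 adjusted p = 0.136). Fundc1, another receptor of the outer membrane, had 79.7 and 83.3 CPM with DMSO and 94.0 and 87.4 CPM with risperidone. Its log2 fold change was 0.15 (SE 0.0595, edgeR adjusted p = 0.0408) and, in TPM, -0.09, which was 0.13 above the median of all genes. It was at 0.10 without risperidone 1 (edgeR adjusted p = 0.152), and the call was kept under 4 of 14 alternatives.

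Of the regulators, Tfe3 had 150 and 155 CPM with DMSO and 140 and 123 CPM with risperidone. The groups did not overlap (log2 fold change -0.21, SE 0.0604, edgeR adjusted p = 0.0110), but the gene was not called without control 2 or without risperidone 2 (log2 fold change -0.18 and -0.12, edgeR adjusted p = 0.0746 and 0.0638), and it was at -0.30 without risperidone 1. Tfeb was scarce, with 7.36 and 7.38 CPM with DMSO and 7.61 and 7.16 CPM with risperidone. Its log2 fold change was 0.00 with an SE of 0.149, too wide an error to detect small changes at this depth. mRNA levels do not show where these proteins are in the cell, which is how they are known to be controlled.

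Gene length moved with the changes. With all genes tested placed in 5 bins by length, the median log2 fold change was 0.12 in the shortest and then 0.04, 0.01, -0.05 and -0.11 towards the longest. The 37 genes, of which 4, 11, 11, 6 and 5 fell in these bins, had medians of 0.10, -0.08, 0.01, -0.09 and -0.28. The longest bin held 3 ULK complex genes among its 5 members. When the trend was taken out by an offset for length, 8 of the 37 were higher and 13 lower, against 33.4% and 31.9% of all genes (65.3% in either direction), and 21 were called in the same direction both ways. The ULK complex then had 3 of 5 members called lower and a median of -0.17. Map1lc3b was at -0.72, Gabarap at 0.45, Bnip3l kept its call and Atg10 was at -1.45. What gives rise to the trend with length was not tested.

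**Figure D4:**
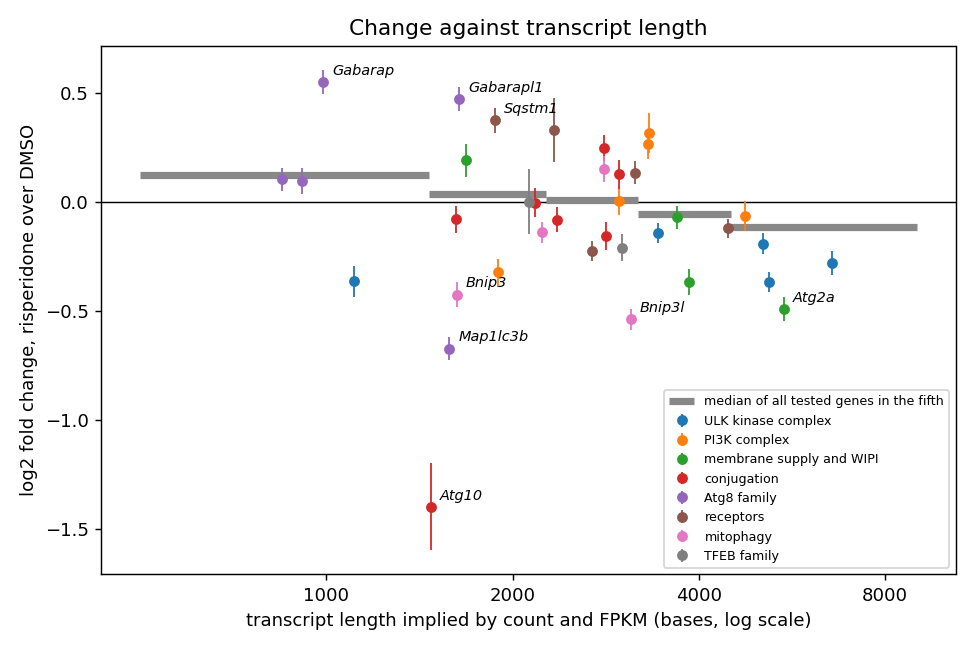
Log2 fold change (risperidone over DMSO) against gene length in bases on a log axis, with the 37 genes as points (bars of 1 standard error, coloured by role) over grey lines for the medians of all genes tested in 5 bins of length. The medians run from 0.12 in the shortest bin to -0.11 in the longest, while Map1lc3b (-0.67) and Gabarap (0.55) lie on opposite sides.

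Other genes of the pathway were taken from lists of 73 genes in the table, of which 68 passed the minimum level, and 25 were higher and 23 lower (70.6% called, against 64.3% of all genes). Of 11 other initiation genes, 4 were higher and 2 lower. Sh3glb1, which encodes the UVRAG partner endophilin B1, was at 287 and 293 CPM with DMSO and 477 and 458 CPM with risperidone (log2 fold change 0.69, SE 0.0478, edgeR adjusted p = 5.57e-07). Nrbf2, a subunit of the ATG14 form of the PI3K complex, was at 0.51 and Rab1a, a trafficking GTPase, at 0.24. Of 5 other conjugation genes, Atg4d (-0.56) and Atg4a (-0.15), proteases like Atg4b, were lower and none was higher. Of 16 genes for fusion with lysosomes, 5 were higher and 8 lower. They included Vps33a (-0.75) and Vps11 (0.46), subunits of the tethering complexes, and the tether Epg5 (-0.45). Of 11 other receptors and scaffolds, 5 were higher and 4 lower, among them the glycogen receptor Stbd1 (1.29), the ribosome receptor Nufip1 (0.88) and the endoplasmic reticulum receptor Atl3 (-0.56). Stbd1 was scarce, at 4.16 and 4.76 CPM with DMSO and 10.7 and 11.2 CPM with risperidone, without overlap. Of 18 other mitophagy genes, 9 were higher and 3 lower. The mitofusin gene Mfn1 was at -0.65, while Tomm7, a subunit of the import pore that holds PINK1, and the phosphatase gene Pgam5 were both at 0.47. Of 7 further regulators of the TFEB family and of Rag GTPases, 2 were higher (Rraga at 0.34 and Fnip2 at 0.27) and 4 lower, Zkscan3, a repressor of autophagy genes, at -0.53. In TPM the 68 genes were 9 higher and 35 lower, against 1536 higher and 5292 lower among all genes.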

How the data were processed

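The deposited table holds, per the file headers, an expected count, FPKM and TPM for each gene and library. The authors removed adaptor, poly-N and low-quality reads and mapped the rest. The submitters' processing notes name Bowtie2, RSEM, DESeq2 and GRCm38.p6 without roles or versions. Whether the counts used strand is not given in the sources used here. FPKM and TPM were computed by the authors and used as deposited, and the authors' 6 columns of group means were not used. Expected counts were rounded, genes averaging 1 FPKM or more were kept, and edgeR 4.0.16 in R 4.3.3 (TMM, quasi-likelihood F-test, two-sided) compared risperidone with DMSO with Benjamini-Hochberg adjustment. TMM factors were 1.03 and 1.03 for DMSO and 0.963 and 0.973 for risperidone. SEs were derived from the F statistic and the log2 fold change. Lengths are counts over FPKM, and the length correction is a smooth trend entered as an offset. Alternatives used limma 3.58.1 with pseudocounts of 1 or 0.1, DESeq2 1.42.0, other filters and scalings, and leaving out each library. All 37 genes are named, and every library's value is given for those called with a log2 fold change of 0.4 or more in size and for the Atg8, receptor, mitophagy and TFEB groups, with ULK and others added after their values were seen. From each other list the 3 largest called changes are named. The genes and lists were chosen with earlier results of these data known. The fitting functions were also run on simulated counts in which few genes changed. Most genes were called in these data, so that run checks the functions and not the calls above.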

Additional observations from a re-analysis of the deposited data

How the results depend on the processing

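With RLE size factors in place of TMM the 37 genes were again 9 higher and 16 lower, beside 3305 and 3291 of all genes. Scaled by library size alone they were 5 higher and 20 lower with a median of -0.17, beside 2500 and 4092 of all genes with a median of -0.093. Limma on log2(FPKM + 1) and on log2(FPKM + 0.1), which also changed the test, gave 5 higher and 20 lower with medians of -0.18, beside 2420 and 3975, and 2423 and 3971, of all genes with medians of -0.084 and -0.092. Each of these gave 1 initiation gene higher, 4 conjugation genes lower, 1 receptor higher and 0 mitophagy genes higher. Limma on log2(TPM + 1), again another test as well as another scaling, gave 3 higher and 24 lower with a median of -0.32 (all genes 1536 higher and 5292 lower with a median of -0.22, other pathway genes 9 and 35). There 0 initiation and 0 conjugation genes were higher, 4 conjugation and 3 Atg8 genes were lower, 1 receptor was higher and 0 mitophagy genes were higher. Without a filter 6 of the 37 were higher and 14 lower, beside 2942 and 3086 of all genes, with 1 receptor higher and 1 lower, 0 mitophagy genes higher and 0 TFEB family genes lower, and with at least 5 FPKM, where Atg10, Tfeb and Optn were not tested and Atg4b was called lower, there were 6 higher and 16 lower, beside 2669 and 2732 of all genes, 1 receptor and 0 mitophagy genes higher and the median was -0.10. DESeq2 gave 6 of the 37 higher and 13 lower, beside 2639 and 2653 of all genes, with 1 initiation and 0 mitophagy genes higher and 1 receptor lower. Length offsets gave 1 receptor lower and a median of -0.032. A log2 limit of 1 on the size of the change left 0 of the 37 higher and 1 lower, by construction, and 267 and 401 of all genes. Otherwise the cause was not tested.

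Leaving out each library gave 4 to 10 of the 37 higher and 11 to 17 lower, beside 2666 to 3310 and 2725 to 3350 of all genes. By group it gave 1 to 2 initiation genes higher, 0 to 2 conjugation genes higher and 1 to 3 lower, 1 to 2 receptors higher and 1 to 2 lower, 0 to 1 mitophagy genes higher and 0 to 1 TFEB family genes lower. Signs turned for genes that were not called or had small changes. Pik3c3 was at -0.019 (at least 5 FPKM), -0.088 (library size), -0.22 (TPM), -0.083 and -0.088 (FPKM with pseudocounts of 1 and 0.1) and -0.051 to 0.064 with a library left out. Tfeb was at -0.091 (library size), -0.25 (TPM), -0.11 and -0.14 (FPKM), -0.022 (length offsets) and -0.043 to 0.047 with a library left out. In TPM, Atg16l1 was at -0.11, Fundc1 at -0.091, Gabarapl2 and Map1lc3a both at -0.14, Tax1bp1 at -0.10 and Wipi1 at -0.052. Map1lc3a was at -0.0032 and -0.0033 in FPKM. With length offsets, Gabarapl2 was at -0.032, Map1lc3a at -0.024 and Pik3r4 at 0.029. With a library left out, Atg5 lay between -0.072 and 0.069 and Atg12 between -0.16 and 0.00064.

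The replicate numbers share no stated day or batch. The replicate differences of the groups correlated at -0.105, which with 2 libraries per group cannot decide whether they share one. With the replicate block, all genes gave 3292 higher and 3321 lower and the 37 genes gave 8 and 15, with 1 receptor higher and 1 lower and 2 conjugation genes lower. The block lost the calls of Nbr1, Pink1 and Tax1bp1 (edgeR adjusted p = 0.0865, 0.0528 and 0.0586) and added Atg4b (0.0474). A crossed block, added after the data were seen, gave 9 and 17 of the 37, beside 3474 and 3519 of all genes. Pooled cultures and 2 libraries per group limit the error estimate, and Tfeb, Optn and Atg10 had the fewest counts.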
